A study of Mus musculus with 3 samples.

Results

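CTCFL peaks were examined at 10 genes of the Krüppel-like factor (Klf) family in mouse embryonic stem (ES) cells, namely Klf2, Klf3, Klf4, Klf5, Klf6, Klf7, Klf9, Klf10, Klf12 and Klf13. CTCFL, also named BORIS, is a testis-expressed paralogue of the DNA-binding protein CTCF. The 10 genes are among 22359 protein-coding genes of the annotation and among 17 genes with a Klf symbol. Each symbol matched 1 gene. The genes were selected on the measured positions and widths of the peaks, with Klf5 listed for one of the widest. For each gene, peaks were recorded whose center lay from -2 kb to +1 kb of a transcription start site (TSS), which is called the promoter interval here, inside the gene body, or within 100 kb of a TSS. This gave 14 of 7436 peaks.

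The ES cells carried a CTCFL transgene tagged with V5 and GFP and were grown in medium with LIF on gelatin. In the induced group, doxycycline was given for 3 days, GFP-expressing cells were sorted, and chromatin was precipitated with the V5 antibody. The control group was the same cell line without doxycycline and without sorting, precipitated with the V5 antibody. A separate library was made with an antibody against CTCF, from what the paper calls normal ES cells. Each of the 3 conditions had 1 library; the spread between replicates is therefore unknown, and induction and sorting cannot be told apart. The labels do not say whether the line was 1 clone. The peak list used here was that of the induced cells, while peaks of the non-induced and CTCF libraries were not analysed here. Whether the non-induced library served as control in peak calling is not given in the sources used here, so CTCFL peak means a peak of this V5 list and dependence on induction was not tested. It gives the position of each peak on the mm9 build without any height, significance or read count, and the depth of single peaks is therefore unknown. The list holds no expression values, and the labelled cell type was therefore not checked against its markers.

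Klf proteins are transcription factors that bind GC-rich and CACCC sequences through zinc fingers at their C-terminal end, while their N-terminal parts recruit activators or repressors. They are closely related to the Sp factors. In ES cells Klf2, Klf4 and Klf5 act together in the LIF-dependent network that maintains self-renewal, and Klf4 is one of the factors used to reprogram somatic cells.

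CTCFL peaks were recorded at 8 of the 10 genes and none at Klf6 and Klf12. The longest interval lay at the start of Klf5, where a peak of 2498 bp covered the promoter, exon 1 and the beginning of intron 1. The promoters of Klf3 and Klf7 also had a peak. Klf4, Klf9, Klf10 and Klf13 had peaks inside the gene but outside the promoter interval, and the peak recorded for Klf2 was distal. These values describe how the genes were listed and carry no test.

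To see which DNA sequences lay under these peaks, a binding motif was learned from the other 7422 peaks of the list and then searched in the Klf peaks. The resulting matrix had 14 positions with the consensus CCANNAGGGGGCGC, where N marks a position at which no base reached 50%. The 4436 sites behind the matrix had G in 100% at position 7, in 99.3% at position 10 and in 95.5% at position 11, counted from 1 at the 5′ end. C was found in 97% at position 2. Position 3 was less fixed, with A in 51.2%, and position 13 had G in 64.3% and A in 32.9%. A match was a score of at least 12.72 on either strand, the value exceeded in 5% of equally wide control windows placed 2 kb upstream and downstream of the other peaks. A match is a likeness in sequence and is not by itself a binding site.

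The 7 matches in Klf peaks are shown first because they are the stretches under these peaks that resemble the motif. In the distal Klf10 peak and the Klf2 peak another gene had the nearest TSS. There was 1 such match in a Klf10 peak outside the gene, 1 in the Klf10 exon, and 1 each in peaks of Klf13, Klf4, Klf9, Klf3 and Klf2. Each is written 5′ to 3′ on the strand that carries the motif, with mm9 coordinates of the printed bases. Capitals mark the 14 bases of the match.
Klf10, chr15:38177014-38177087 (plus strand): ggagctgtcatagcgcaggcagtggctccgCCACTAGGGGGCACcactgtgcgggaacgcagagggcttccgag
Klf13, chr7:71000339-71000412 (plus strand): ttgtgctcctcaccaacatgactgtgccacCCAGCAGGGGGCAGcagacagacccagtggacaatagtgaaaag
Klf10, chr15:38227173-38227246 (plus strand): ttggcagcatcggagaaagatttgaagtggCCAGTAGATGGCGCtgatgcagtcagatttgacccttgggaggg
Klf4, chr4:55543290-55543363 (minus strand): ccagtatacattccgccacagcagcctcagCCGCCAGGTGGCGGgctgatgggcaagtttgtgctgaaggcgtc
Klf9, chr19:23233647-23233720 (plus strand): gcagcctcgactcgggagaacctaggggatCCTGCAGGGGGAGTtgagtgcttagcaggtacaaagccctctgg
Klf3, chr5:65193942-65194015 (minus strand): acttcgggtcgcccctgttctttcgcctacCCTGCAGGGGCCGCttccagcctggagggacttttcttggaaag
Klf2, chr8:74796420-74796493 (plus strand): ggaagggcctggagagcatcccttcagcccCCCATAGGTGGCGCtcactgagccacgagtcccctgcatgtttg

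Compared with the consensus, the distal Klf10 site had the single difference G13A. The Klf13 site had G13A and C14G, and the site in the Klf10 exon had G8A and G9T. The Klf4 site differed by A3G, G9T and C14G. In the Klf9 site the differences were A3T, C12A and C14T, in the Klf3 site A3T and G11C, and in the Klf2 site A3C and G9T. Thus position 3, the weakly fixed one, differed in 4 of the 7 sites. The first letter is the consensus base and the last the base of the site. The scores were 20.33 at the distal Klf10 peak, 19.79 at the distal Klf13 peak, 17.44 in the Klf10 exon, 17.26 at Klf4, 14.18 at Klf9, 13.57 at Klf3 and 13.03 at Klf2. The first 4 of these also passed the stricter value of 16.35 that 1% of flanking windows exceeded.

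The start of Klf5 is shown next, since it lay under the widest promoter peak of the list and held no match. The first line gives the 250 bases before the TSS, with the CG dinucleotides in capitals. The second line gives the best-scoring stretch of the whole 2498-bp peak, with capitals as above, which lies in the same 250 bases and did not reach the threshold.
Klf5 promoter, chr14:99697660-99697909 (plus strand): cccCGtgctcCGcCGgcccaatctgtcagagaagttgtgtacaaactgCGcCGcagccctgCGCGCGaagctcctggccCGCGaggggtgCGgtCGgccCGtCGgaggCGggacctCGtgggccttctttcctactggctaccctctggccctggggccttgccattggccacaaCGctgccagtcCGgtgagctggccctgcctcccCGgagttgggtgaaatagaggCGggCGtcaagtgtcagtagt
Klf5, chr14:99697727-99697800 (plus strand): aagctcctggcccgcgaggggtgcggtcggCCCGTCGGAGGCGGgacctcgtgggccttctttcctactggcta

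The 250 bases held 21 CG dinucleotides and had a GC content of 67.2%. The best stretch had a score of 8.26 and differed from the consensus by A3C, A6C, G9A and C14G. Position 6 had A in 89.4% of the sites behind the matrix.

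**Figure D1:**
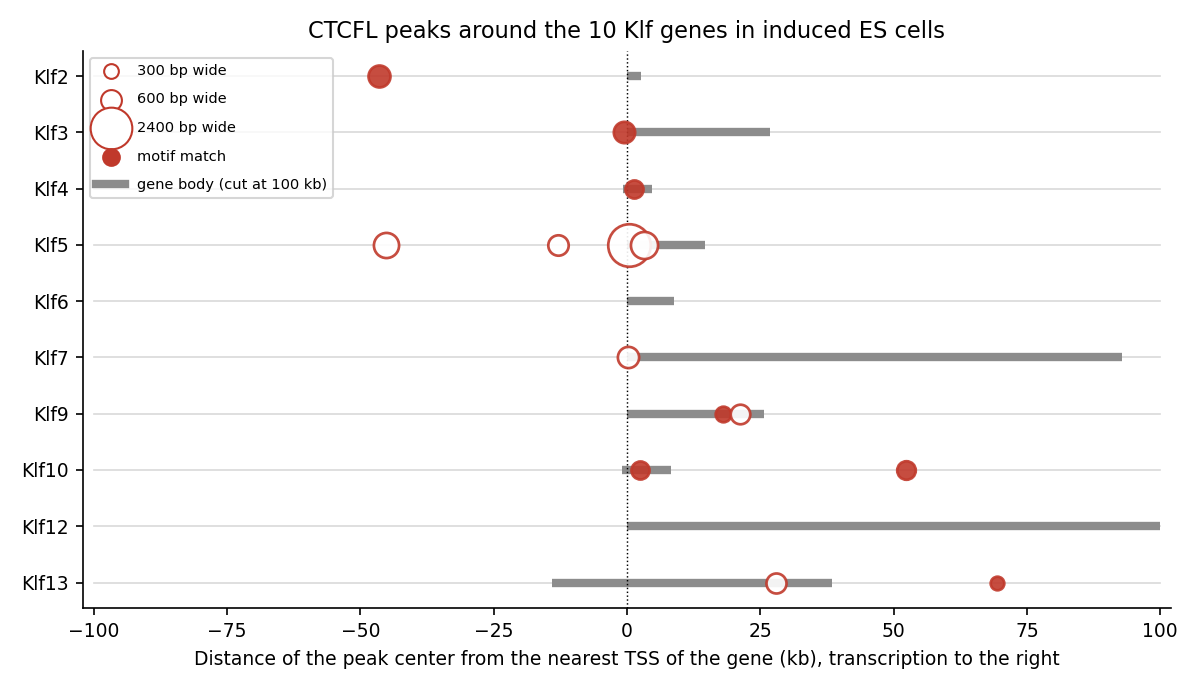
CTCFL peaks around the 10 Klf genes, with the distance of the peak center from the nearest TSS of the gene in kb on the horizontal axis and transcription to the right. The area of a circle follows the peak width, filled circles hold a motif match, and grey bars are gene bodies. The circles of Klf5 (4 peaks) are all open, and Klf6 and Klf12 have none.

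Klf5 regulates epithelial growth and is needed in the early embryo. The gene lies on mm9 at chr14:99697910-99712624 on the plus strand, has 1 annotated TSS and 4 exons, and had 4 peaks within 100 kb. Of all protein-coding genes, 11.2% had at least as many. The widest of these peaks, chr14:99697057-99699554, reached from -853 to +1644 bp of the TSS, with its center at +395 bp. It covered all 532 bp of exon 1, of which 228 bp are coding, and its center lay in the coding part of this exon. Its width of 2498 bp ranked 5 of 7436 and was the largest of 2344 promoter peaks. The next promoter peak was 2401 bp wide and lay at Tbc1d4 on the same chromosome, at chr14:102006510-102008910.

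Wide peaks can lie in repeated sequence, and the uniqueness of each peak was therefore measured with windows of 36 bases, the length of the reads. Every window of the wide Klf5 peak was found once in the genome. Among the 10 widest peaks of the list, 3 had only unique windows, and in 7 under 90% of the windows were unique. All 4 peaks wider than the Klf5 peak belonged to the latter. Over the whole list, 464 peaks (6.24%) had under 90% unique windows.

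The next Klf5 peak, chr14:99700531-99701546, was 1016 bp wide, ranked 100 by width and began 976 bp after the end of the wide peak. It reached from +2621 to +3636 bp of the TSS. Exon 2 of Klf5 spans 99700600 to 99701473, and this coding exon of 874 bp lay inside the peak, which extended 69 bp beyond one end and 73 bp beyond the other. The bases shared by peak and exon made up 0.86 of the bases covered by either. A value of 0.7 or more was found for 1.69% of all peaks. In this peak 96.3% of the windows were unique. When peaks within 1000 bp of each other were merged, the 2 peaks formed 1 interval of 4490 bp, whose center lay outside the promoter interval.

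Both remaining Klf5 peaks lay upstream of the gene. One, chr14:99684618-99685192, was 575 bp wide with its center at -13005 bp, in no annotated gene, and 93.5% of its windows were unique. The other, chr14:99652382-99653255, was 874 bp wide (rank 204) with its center at -45092 bp, inside the neighboring gene Pibf1. For both, Klf5 nevertheless had the nearest TSS. The 4 Klf5 peaks together covered 4963 of the 9937 bp of all Klf peaks, or 49.9%.

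**Figure D2:**
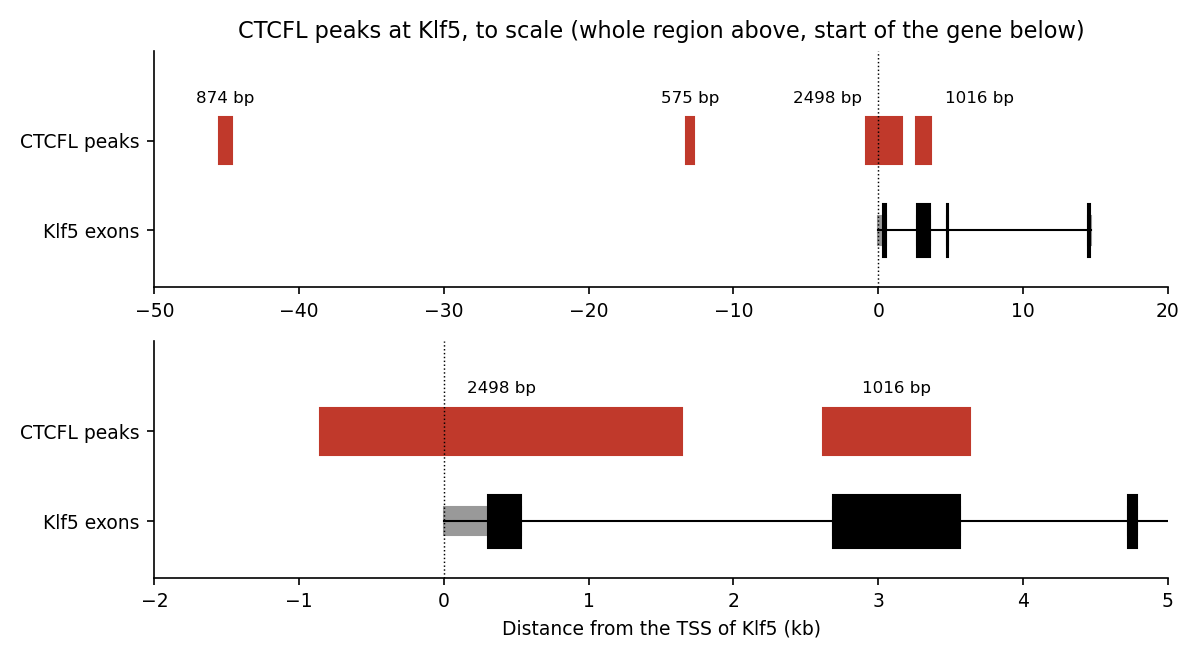
Peaks (red) and exons of Klf5 drawn to scale by distance from its TSS in kb, with the whole region above and the start of the gene below; coding exon parts are black and noncoding parts grey. The 2498-bp peak covers exon 1 and the 1016-bp peak covers exon 2 with 69 and 73 bp to spare.

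Klf4 (chr4:55540013-55545347, minus strand) encodes a zinc finger protein that is a direct target of LIF and Stat3 signaling in ES cells. Its peak, chr4:55543057-55543509, was 453 bp wide, 1 bp narrower than the median, and ranked 3720. All 453 bp lay in exon 3 of 5, which is coding and 985 bp long. The center was 1359 bp downstream of the nearest TSS and 2064 bp downstream of the most upstream one, hence just outside the promoter interval. The motif match shown above lay 43 bp from the peak center, in the coding sequence and on the coding strand.

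Klf2 (chr8:74842932-74845555, plus strand) is a further self-renewal factor of ES cells and is known from endothelial cells and lymphocytes. Neither its promoter nor its short gene body of 2624 bp had a peak. The recorded peak, chr8:74796094-74796758, was 665 bp wide (rank 871) and lay at -46506 bp. Its nearest TSS was not that of Klf2 but that of Ap1m1, a subunit of the clathrin adaptor AP-1, at a distance of 32204 bp. There were 4 other genes with a TSS within 100 kb of Klf2. For these self-renewal factors, the recorded peaks were 4 around Klf5, 1 in an exon of Klf4 and 1 distal peak at Klf2. Nothing is read from this, since the genes were listed with these peaks known.

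Klf3 (chr5:65194628-65221368, plus strand) and Klf12 are repressors that bind the corepressor CtBP. The Klf3 peak, chr5:65193716-65194345, was 630 bp wide (rank 1167) and lay entirely upstream of the gene, from -912 to -283 bp of the most upstream TSS. It held 55 CG dinucleotides and had a GC content of 67.3%. Klf12 (chr14:100269869-100549015, minus strand) had no peak over its 279147 bp. Among the 593 genes at least as long as Klf12, 42.0% had a peak in the gene body. Klf12 and Klf5 both lie on chromosome 14, with 851105 bp between their TSSs, and the peak nearest to its TSS was at -494102 bp.

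Klf6 and Klf7 are closely related to each other and act as activators, Klf7 among others in neurons. Klf7 (chr1:64076021-64168856, minus strand) had a promoter peak, chr1:64168261-64168883, of 623 bp (rank 1246). It reached from -27 to +595 bp of the most upstream of 5 annotated TSSs, covered the 81-bp exon there and had its center in an intron. The coding transcript with the longest span had no exon in this peak. The 55 CG dinucleotides of the Klf7 peak were as many as those of the Klf3 peak. At Klf6 (chr13:5860735-5869639, plus strand) no peak was recorded, and the nearest lay 543281 bp downstream of the TSS with a width of 427 bp.

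Klf9, Klf10 and Klf13 are repressors that bind the corepressor Sin3A, and each had 2 peaks. Klf9 (chr19:23215716-23241401, plus strand), a target of glucocorticoid and thyroid hormone, had both in an intron, at +17942 bp (chr19:23233490-23233826, 337 bp wide) and at +21181 bp (chr19:23236633-23237161, 529 bp). They were separated by 2806 bp. The narrower peak held the match shown above, 25 bp from its center.

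Klf10 (chr15:38221219-38230464, minus strand) is an early target of TGF-β. One of its peaks, chr15:38226879-38227329, was 451 bp wide with its center at +2362 bp of the nearest TSS and +3360 bp of the most upstream TSS. It lay mostly in coding exon 3 of 5, which spans 38226815 to 38227282, and shared 404 coding bp with it. The bases shared by the peak and this exon were 0.784 of the bases of either. The other, chr15:38176920-38177396, was 477 bp wide and lay at +52308 bp, beyond the end of the gene and with the TSS of Odf1 nearest at 28200 bp. This peak had the best motif score of all Klf peaks, with a rank of 525 in the whole list. However, only 60.4% of its windows were unique, the lowest value among the 14 peaks.

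Klf13 (chr7:71031237-71083801, minus strand), which regulates cytokine genes in T cells, had an intronic peak of 553 bp (chr7:71041611-71042163) at +27869 bp of its nearest TSS, an internal one, and at +41914 bp of the most upstream TSS. Its other peak, chr7:71000247-71000502, lay beyond the end of the gene at +69382 bp and was the narrowest of the 14, with 256 bp (rank 7029). The match in this narrow peak lay 1 bp from its center and ranked 686 by score. The widest and the narrowest Klf peak thus lay on opposite sides of the motif threshold.

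In all, 3 of 10 genes (Klf3, Klf5 and Klf7) had a promoter peak, against 11.2% of all protein-coding genes and 18.5% of the 8762 genes with a CpG-rich promoter. Of the 10 promoters, 9 were CpG-rich, that is, within 500 bp of the most upstream TSS the GC content was at least 55% and the CpG ratio, observed over expected from the base composition, at least 0.6. The ratio ran from 0.71 at Klf2 to 1.02 at Klf9, and Klf12 had the exception with 0.37. Klf9, with the highest ratio, had no promoter peak, and neither did Klf4 with 0.96 and Klf13 with 0.93, while Klf5 had 0.93 and Klf7 0.8. Thus genes with and without a promoter peak overlapped in CpG ratio. With the interval extended to +5 kb, chosen after seeing the data, Klf4 and Klf10 were added and 5 genes had a promoter peak. The share of all genes at this wider interval was not computed, and the shares of 11.2% and 18.5% do not apply to it.

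A peak in the gene body was recorded at 6 genes, namely Klf4, Klf5, Klf7, Klf9, Klf10 and Klf13, against 15.0% of all protein-coding genes. Klf5 and Klf9 had 2 such peaks, as 2.2% of all genes had 2 or more. A peak within 100 kb was recorded at 8 of the 10 genes, and at 60.3% of all genes. The median was 1 peak per gene within 100 kb, both for the Klf genes and for all genes. Since the genes were chosen with these peaks known, nothing is read from the counts. The peak farthest inside the 100 kb limit was the distal one of Klf13 at 69382 bp, and the nearest excluded ones were at -110013 bp of Klf13 (643 bp wide) and at 110918 bp of Klf2 (487 bp wide).

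Of the 14 peaks, 3 lay in a promoter interval of the Klf gene, 6 in its body outside that interval and 5 in neither. Over the whole list, 2344 of 7436 peaks lay in a promoter interval of a protein-coding gene. The center lay in a gene body in 3870 peaks, whether or not also in a promoter interval. The difference was not tested. The center fell in a coding exon of the Klf gene in 4 peaks, 2 at Klf5 and 1 each at Klf4 and Klf10. This was so for 7.34% of all peaks and for 14.1% of the 3870 peaks with their center in a gene body. In 2 of these 4, at Klf5 and Klf10, peak and exon largely coincided by the measure given above. The part of the exon in these peaks was not tested.

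The median width of the Klf peaks was 564 bp, against 454 bp for the whole list and 515 bp for all promoter peaks. Above the median of the list were 10 peaks, and 7 were among the widest 25% of the list. The 3 promoter peaks were 623, 630 and 2498 bp wide, so that Klf3 and Klf7 were alike and Klf5 stood apart from them. Inside gene bodies but outside promoters the widths ran from 337 bp at Klf9 to 1016 bp at Klf5.

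**Figure D3:**
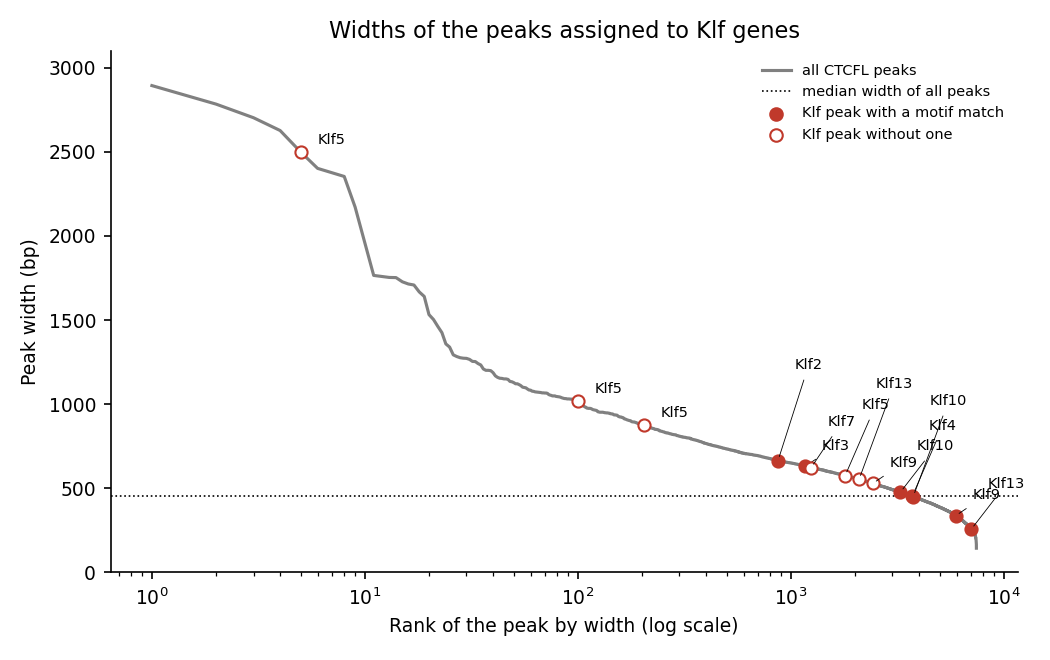
Width in bp of all 7436 CTCFL peaks (grey line) against their rank by width on a log scale, with the 14 Klf peaks marked and filled where they hold a motif match. The dotted line is the median of 454 bp; the 4 Klf5 peaks are all above it and open, and the filled peaks are at 665 bp or less.

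The CpG ratio was 0.77 at the Klf3 promoter peak, 0.82 at Klf7 and 0.87 at Klf5, where the wide peak held 177 CG dinucleotides. The median of all promoter peaks was 0.7. The distal peaks ranged widely, from 0.53 at Klf10 to 0.17 and 0.13 in the upstream Klf5 peaks, 0.08 at Klf2 and 0 CG dinucleotides in the 256 bp at Klf13. The intronic peaks had 0.55 at Klf13 and 0.25 and 0.36 at Klf9. The median of all peaks outside promoters was 0.25. The exonic peak of Klf4 had 0.67, close to the promoter peaks, and the exonic peaks of Klf5 and Klf10 had 0.46 and 0.41. The median GC content was 51.1% in the Klf peaks and 52.6% in all peaks.

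A motif match was present in 7 of the 14 Klf peaks (50%, 95% Wilson interval 26.8 to 73.2%) and in 58.9% of the other 7422 peaks (57.8 to 60.0%). These intervals cover counting error only and treat peaks as independent, while the 14 peaks were selected and 4 belong to Klf5. The difference was not tested. Per kb of sequence there were 0.7 matches in Klf peaks, 1.37 in other peaks and 0.11 in flanking windows. The value for the Klf peaks rested on Klf5, whose peaks held none in 4963 bp. Without them it was 1.41 over 4974 bp. Other peaks of at least 1000 bp with at least 90% unique windows had 0.85 per kb. The matches lay at a median of 43 bp and at most 108 bp from the peak center, 3 on the strand of the gene and 4 on the other strand.

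None of the 4 Klf5 peaks held a match, although they made up much of the length searched. In the other genes, 7 of the 10 peaks held one. This split by gene was not tested. The best scores at Klf5 were 10.77 in the peak inside Pibf1, 1.4 in the other upstream peak, 8.26 in the wide promoter peak and 4.64 at exon 2. Scores of at least 10.77 were found in 68.1% of all peaks, and scores of at least 1.4 in 92.7%. Among the other peaks of at least 1000 bp with at least 90% unique windows, 60.0% held a match (42 of 70, 48.3 to 70.7%). The upstream Klf5 peaks, of 575 and 874 bp, are below this width. Of the other promoter peaks 55.1% held one, and of those within the same limits of width and uniqueness 64.1% (25 of 39, 48.4 to 77.3%). In the central 200 bp, with a threshold for that width, 15 of the 70 wide peaks (21.4%) and 60.8% of all other peaks held a match. The same count was 10 of the 39 wide promoter peaks (25.6%) and 7 of the 14 Klf peaks (50%). The threshold for whole peaks was pooled over windows of all widths, and a wider peak has more positions at which to pass it. The Klf7 promoter peak, with a best score of 11.24, the wider Klf9 peak, with 11.58, and the intronic Klf13 peak, with 7.68, also stayed below the threshold. Hence the Klf3 peak was the only one of 3 promoter peaks with a match, and at 13.57 it passed by less than 1 unit of score.

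At the stricter threshold of 16.35, 4 Klf peaks (28.6%) and 35.1% of the other peaks held a match. These 4 lay in the exons of Klf4 and Klf10 and beyond the ends of Klf10 and Klf13. The promoter sequence itself was searched over 3001 bp around a single TSS of each gene, whether or not a peak was present. In this stretch none of the 10 Klf genes had a match at the stricter threshold. Klf3, Klf4, Klf7, Klf10 and Klf13 have several annotated TSSs, and the intervals of their other TSSs were not searched separately. Of all protein-coding genes 6.42% had a match in this stretch. The share was 26.3% among genes with a promoter peak at any TSS and 3.9% among those without. The matrix was learned from peaks of this same list, so this contrast is no independent check of the motif.

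**Figure D4:**
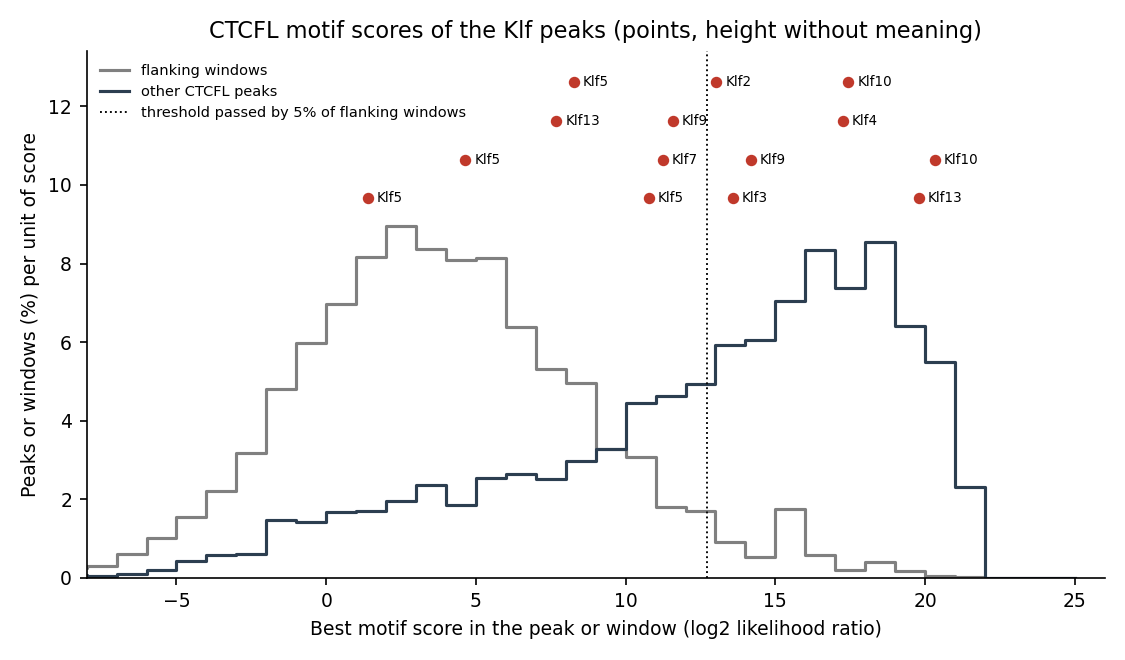
Best motif score (log2 likelihood ratio) of the 14 Klf peaks (points, height without meaning), of the other 7422 peaks (dark line) and of flanking windows (grey line), the lines as percent per unit of score. The 4 Klf5 peaks, at 1.4 to 10.77, lie left of the dotted threshold of 12.72, and the peaks of Klf4, Klf10 and the distal peak of Klf13 lie farthest to the right.

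The rest of the family was counted for comparison. Of the other 7 Klf genes, only Klf16 had a promoter peak (557 bp wide, center at -1365 bp), Klf1 and Klf8 had peaks in the gene body, and all 7 had a peak within 100 kb. Klf1, the erythroid founding member of the family, had 10 peaks within 100 kb in a region with the TSSs of 14 other genes. Of the 9 Sp genes, Sp1 (634 bp, center at +589 bp) and Sp9 (401 bp, at -1204 bp) had a promoter peak, Sp1, Sp2 and Sp6 had peaks in the gene body, and Sp3 and Sp4 had none. Neighboring genes shared peaks within 100 kb: all peaks of Sp1 were also counted for Sp7, and all those of Sp2 also for Sp6. At Klf11, Klf14, Klf15, Klf17 and Sp5, another gene had the nearest TSS to every peak. Together, 3 of these 16 genes had a promoter peak, 5 a gene body peak and 14 a peak within 100 kb. The shares of all protein-coding genes were 11.2%, 15.0% and 60.3%, and the difference was not tested.

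Of 17 further genes of the pluripotency network, 4 had a promoter peak. These were Tbx3 (742 bp, center at +2 bp), Tcfcp2l1, also called Tfcp2l1 (696 bp, at -71 bp), Sall4 (565 bp, at +53 bp) and Mycn (603 bp, at -701 bp). A peak in the gene body was found at 6 genes and a peak within 100 kb at 14. Tcl1, Nr0b1 and Myc had none. The neighboring genes Nanog and Dppa3 shared most of their peaks. Of all protein-coding genes, 11.2% had a promoter peak, 15.0% a gene body peak and 60.3% a peak within 100 kb. The difference was not tested here either.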

How the data were processed

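CTCFL ChIP-sequencing was done in 1 library per condition. Reads of 36 bp were mapped by the authors with ELAND to the mouse genome, and their comparative analysis used BOWTIE on mm9 and MACS. Which of these steps made the deposited list is not given in the sources used here. The deposited values are the start and end of each peak in bp, a unit that carries no height or depth, and their build was checked against chromosome lengths. Peaks were assigned by their center to protein-coding transcripts of the GENCODE annotation on mm9. The motif matrix was learned from peaks not assigned to the Klf genes, starting from the 8-mer most enriched at peak centers, and scored as a log2 likelihood ratio. Scripts were tested on simulated data. No hypothesis test was run. Members and gene lists were chosen with earlier results of these data known. Named genes were all 10 members, genes of the other lists with a promoter peak, and genes with the nearest TSS to a member peak. Others were named after their values were seen. Alternatives changed peak width, merging, transcripts, overlap, distances and the motif search. Intervals were computed with scipy 1.17.1, tables with pandas 2.3.3 and numpy 2.4.6, window uniqueness with numba 0.67.0 and sequence access with pysam 0.24.0 in Python 3.11.15. Plots were drawn in matplotlib 3.10.9.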

Additional observations from a re-analysis of the deposited data

How the results depend on the processing

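The 7 main results were recomputed under 12 settings, which gave 39 alternative values, and 37 of these stayed within 1.5 times of the count, or within the interval of the share or median, as reported. Merging peaks within 1000 bp of each other joined the wide Klf5 peak to the exon 2 peak and raised its width to 4490 bp. The center of the merged peak left the promoter interval, so that 2 genes, Klf3 and Klf7, had a promoter peak. Extending the promoter interval to +5 kb raised the number of genes with a promoter peak to 5 by adding Klf4 and Klf10, and +2 kb gave 4. Both intervals were chosen after seeing the data, and the shares of all genes at these intervals were not computed. With peaks at or above the median width alone, 10 Klf peaks were left, including all those of Klf5, and 30% held a match. The share among other peaks of that width was not computed. The median width of Klf peaks ran from 541 to 626.5 bp and the share with a match from 28.6 to 55%. No paired analysis was possible because the groups held a single library each, and for the same reason no replicate could be left out. Without read numbers, weak and strong peaks cannot be told apart.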
